A study of Mus musculus with 6 samples.

Results

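The 10 genes described here, Calr, Canx, Pdia3, Pdia4, Pdia6, Hyou1, Creld2, Manf, Sdf2l1 and Xbp1, serve protein folding in the endoplasmic reticulum (ER). They were taken by symbol from a count table of 23079 mouse genes, and all 10 were found and passed the filter on low counts that left 16766 genes for testing. The libraries came from midbrain dopaminergic neurons of C57BL/6 mice of the Dat bacTRAP line, a transgene that puts a tagged ribosomal protein under control of the dopamine transporter gene, aged 4 months. In 3 knockdown libraries the animals had received adeno-associated virus of serotype 1 carrying a short hairpin RNA against Satb1 with EGFP, and in 3 control libraries the same virus type carried a scrambled hairpin with EGFP. The sample titles speak of siRNA and the treatment text of hairpins. The nigral pars compacta (SNpc) and ventral tegmental area (VTA) were dissected from a midbrain slice of 1 mm. The labels count 3 mice in all, do not say which library came from which mouse, and give the molecule as total RNA. The p-values therefore measure only the spread between these libraries, which may be technical.

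Secreted and membrane proteins fold in the ER lumen, where lectin chaperones hold glycoproteins, protein disulfide isomerases form their disulfide bonds, and Hsp70-type chaperones bind exposed hydrophobic stretches. When unfolded proteins build up, the sensors Ire1, Perk and Atf6 start the unfolded protein response, and the transcription factors Xbp1 and Atf6 raise the genes of many chaperones, in part through a promoter element called the ER stress response element (ERSE). Dopamine neurons make much secretory and membrane protein, and Manf, a small ER protein that can also be secreted, is known for protecting these neurons in rodent models.

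The ERSE sequences stand here because, of the 4 genes that carry the exact element, Canx rose, Calr fell and Pdia6 and Creld2 did not pass the test in the knockdown. The 250 bases before each start were searched on both strands for the ERSE, which is CCAAT and CCACG with 9 bases of any kind between them. RefSeq promoter sequence (GRCm38.p6) matched 8 of the 10 genes; Hyou1 and Manf are the others. The exact letters were found for 4 of these 8 genes, Calr, Canx, Pdia6 and Creld2, and for 35 of 27025 genes with a promoter in the same set, or 0.13%. Each line reads along the strand of its gene, with the ERSE in capitals, and where the element lies on the opposite strand its reverse complement is shown.
Calr (chr8:84847055-84847113, minus strand): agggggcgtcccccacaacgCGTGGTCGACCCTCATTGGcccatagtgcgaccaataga
Canx (chr11:50325780-50325838, minus strand): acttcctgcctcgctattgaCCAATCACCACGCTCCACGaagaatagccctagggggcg
Pdia6 (chr12:17266471-17266529, plus strand): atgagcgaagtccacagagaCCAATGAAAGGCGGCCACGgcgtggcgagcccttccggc
Creld2 (chr15:88819500-88819558, plus strand): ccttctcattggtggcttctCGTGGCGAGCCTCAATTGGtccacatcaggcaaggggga

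With 1 mismatch allowed, 6 of the 8 genes and 1.51% of all genes held the element, the added genes being Pdia3 and Pdia4. A second form, ERSE-II, which is ATTGG and CCACG with 1 base of any kind between them, was exact in 10 genes of the set and in none of the 8; with 1 mismatch it was found in Creld2, where it overlaps the ERSE, and in Sdf2l1, and in 1.17% of all genes. Their windows follow, with the matched letters in capitals.
Pdia3 (chr2:121413853-121413901, plus strand), ERSE with 1 mismatch: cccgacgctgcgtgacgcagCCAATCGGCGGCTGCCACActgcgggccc
Pdia4 (chr6:47813582-47813640, minus strand), ERSE with 1 mismatch: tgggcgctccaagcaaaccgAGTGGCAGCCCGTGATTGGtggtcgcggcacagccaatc
Sdf2l1 (chr16:17132502-17132552, minus strand), ERSE-II with 1 mismatch: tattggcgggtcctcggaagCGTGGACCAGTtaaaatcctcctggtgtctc

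The window of Xbp1 held none of these letters. The core TGACGTGG, which spliced Xbp1 is known to bind, was in none of the 8 windows and in 0.603% of all genes. A match is a run of letters and was not measured as bound.

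The deposited counts summed to between 147486754 and 164554674 in the knockdown and between 160792736 and 170351145 in the control libraries. The 10 genes had between 551 and 55082 counts per library. Levels are in CPM, counts relative to a library total scaled with the trimmed mean of M-values (TMM). Satb1, the target, was at 82.9, 166 and 61.2 CPM in knockdown libraries 1 to 3, against 351, 349.6 and 319.8 CPM in control libraries 1 to 3 (log2 fold change -1.72 ± 0.26, SE; edgeR quasi-likelihood test, adjusted p = 0.00106). Knockdown library 2 kept the most Satb1. Dopaminergic neuron markers were present, with a sum over 10 genes of 10959 to 13933 CPM in knockdown and 17499 to 20153 CPM in control libraries; 7 of the 10 fell. Other cell types were present too: 8 of 10 oligodendrocyte markers rose, with sums of 627 to 702 CPM in knockdown and 403 to 459 CPM in control libraries, and none of these markers was at 0. Astrocyte marker sums overlapped, at 507 to 624 CPM in knockdown and 474 to 582 CPM in control libraries, with 2 of 10 markers higher and 1 lower. Most of these sums came from Aldoc and from Slc1a2, the marker that fell (167 to 186 CPM in knockdown, 217 to 260 CPM in control libraries). The median log2 fold change of the 10 astrocyte markers was 0.51, beside 0.013 for all tested genes. Microglia marker sums were 21.9 to 29.0 CPM in knockdown and 23.1 to 24.8 CPM in control libraries. In the test, 2 of 10 markers were higher and 1 was lower. Most of the control sums came from P2ry12, the marker that fell (mean 13.8 CPM in knockdown, 18.9 CPM in control libraries). Every microglia marker but P2ry12 had a positive log2 fold change, although only 2 passed. The median log2 fold change of the 10 microglia markers was 1.06, beside 0.013 for all tested genes. Vessel marker sums were 22.4 to 26.4 CPM in knockdown and 17.9 to 20.3 CPM in control libraries. None of these 10 passed the test in edgeR, 0 did so at an unadjusted p under 0.05, and 0 passed the adjusted threshold in DESeq2 or limma-voom. Of the markers tested, 1 of 9 ependymal, 1 of 10 fibroblast, and 1 of 3 plasma or B cell genes rose. Beside all of these marker counts, 8.48% of all tested genes were called higher and 12.6% lower. For the ependymal and fibroblast lists the counts are near that share. Summed levels of each of these lists were at most 28.6 CPM in any library. The part of these cells in the results below was not tested.

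Setting knockdown libraries against those with the scrambled hairpin shows how these genes stood when Satb1 was reduced. Canx rose, Calr and Hyou1 fell, and the other 7 did not pass the test. Thus 3 of 10 were called at an adjusted p under 0.05, against 21.1% of all tested genes; 1 of 10 was higher, against 8.48%, and 2 of 10 were lower, against 12.6%. The same 3 genes were those whose knockdown libraries all lay on 1 side of the control libraries, as did 38.7% of all tested genes. These shares are near those of all genes. The median log2 fold change of the 10 was -0.11, beside 0.013 for all tested genes. All of these are bulk libraries, in which fewer cells of a type and less RNA per cell cannot be told apart.

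**Figure D1:**
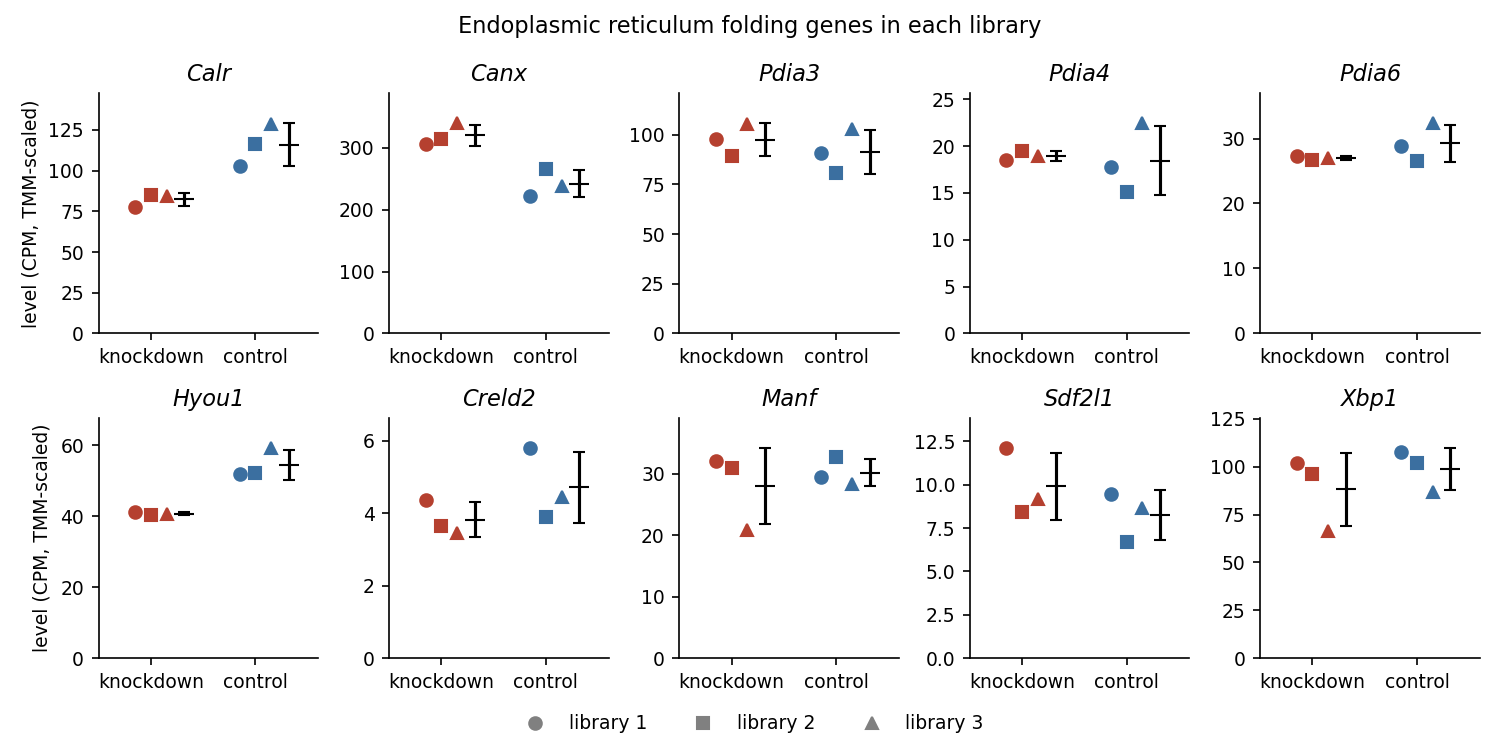
Level of each of the 10 genes (CPM, linear axes from 0) in the 3 knockdown libraries (red) and the 3 control libraries (blue); symbols give the library number and black bars the mean ± SD. Groups are apart for Calr, Canx and Hyou1 and overlap for the other 7; knockdown library 3 is lowest for Manf (20.8 CPM) and Xbp1 (66.5 CPM).

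The lectin chaperones moved in opposite directions. Calr (gene identifier 12317; chromosome 8, 84842088 to 84846931, minus strand, GRCm38) encodes calreticulin, the soluble lectin of the ER lumen and a buffer of its calcium. It was at 77.7, 84.9 and 84.7 CPM in knockdown libraries 1 to 3, against 103, 116 and 129 CPM in control libraries 1 to 3. Every knockdown library lay below every control library. The mean was 82.4 ± 4.09 CPM in the knockdown and 116 ± 13.0 CPM in the control (SD, n = 3 each), 1.41-fold lower, with a log2 fold change of -0.49 ± 0.10 (SE; edgeR, adjusted p = 0.00582).

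Canx (12330; chromosome 11, 50293957 to 50325673, minus strand) encodes calnexin, the membrane-bound lectin that binds the same glycans. It was at 307, 314 and 339.6 CPM in knockdown libraries 1 to 3, against 222, 265 and 239 CPM in control libraries 1 to 3. Every knockdown library lay above every control library. The mean was 320.2 ± 17.2 CPM in the knockdown and 242 ± 22.1 CPM in the control (SD, n = 3 each), 1.32-fold higher, with a log2 fold change of 0.40 ± 0.094 (SE; edgeR, adjusted p = 0.00993). Both genes passed under all 14 alternative settings tried, with adjusted p between 0.000201 and 0.0391 for Calr and between 0.000456 and 0.0479 for Canx.

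Because the scaling of libraries cancels in a ratio, the counts of these genes were also divided by each other within each library; the ratios were chosen after the values had been seen. There were 3.95, 3.70 and 4.01 Canx counts per Calr count in knockdown libraries 1 to 3, against 2.15, 2.28 and 1.85 in control libraries 1 to 3. The groups were apart, and the ratio was 1.86-fold higher in the knockdown. The ratio of Canx to Hyou1 was likewise apart, at 7.47, 7.79 and 8.37 in the knockdown and 4.27, 5.09 and 4.03 in the control. Every knockdown library lay above the control libraries for Canx and below them for Calr and Hyou1. The ratios of Canx to Calr and of Canx to Hyou1 therefore had to be apart. Their separation, and the result of the permutation test that follows from it, adds no separate evidence. The ratio of Calr to Hyou1 overlapped, at 1.89, 2.11 and 2.09 in the knockdown and 1.98, 2.23 and 2.18 in the control. In a 2-sided exact permutation test the first pair of ratios had p = 0.1, the smallest that 3 against 3 libraries allow, or 0.2 after Benjamini-Hochberg adjustment over the 6 ratios computed, and Calr to Hyou1 had p = 0.4 (adjusted p = 0.48).

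**Figure D2:**
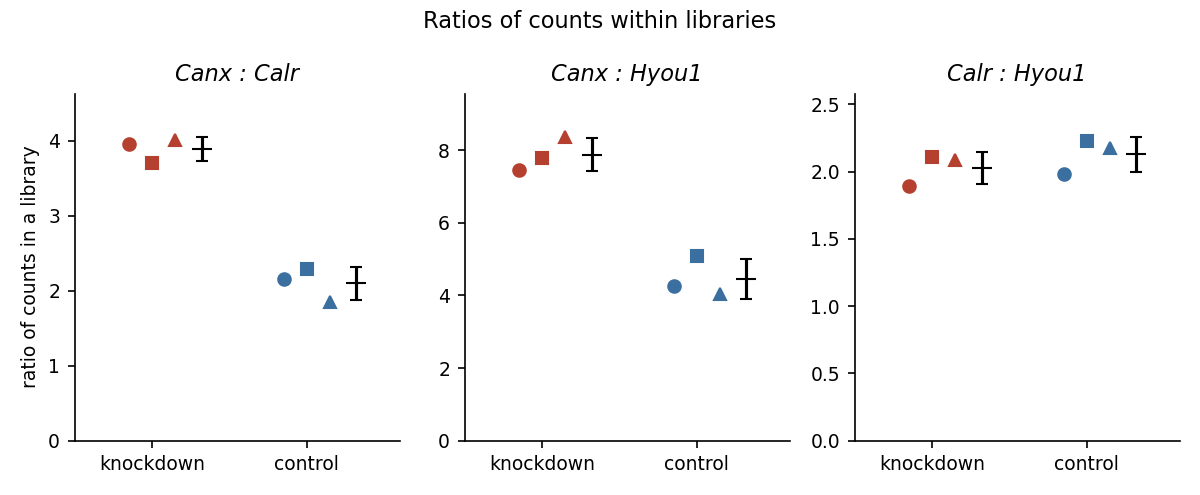
Ratios of counts within each library (linear axes from 0) for Canx to Calr, Canx to Hyou1 and Calr to Hyou1, in knockdown (red) and control (blue) libraries, with symbols for the library number and bars for mean ± SD. The knockdown and control libraries are apart in the ratios with Canx on top and overlap in the ratio of Calr to Hyou1.

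Hyou1 (12282; chromosome 9, 44379490 to 44392369, plus strand) encodes Grp170, a large Hsp70-related chaperone that also exchanges nucleotide on the main ER Hsp70, Hspa5. It was at 41.1, 40.3 and 40.6 CPM in knockdown libraries 1 to 3, against 51.9, 52.2 and 59.2 CPM in control libraries 1 to 3. The SD of the knockdown libraries was 0.973% of their mean, the smallest of the 10 genes, and all of them lay below the control. The mean was 40.7 ± 0.395 CPM in the knockdown and 54.4 ± 4.12 CPM in the control (SD, n = 3 each), 1.34-fold lower, with a log2 fold change of -0.42 ± 0.10 (SE; edgeR, adjusted p = 0.0115). Total-count scaling ended the call (-0.25; edgeR, adjusted p = 0.092), as did leaving out control library 3 (-0.36; adjusted p = 0.052).

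The disulfide isomerases Pdia3, Pdia4 and Pdia6 showed no called difference. Pdia3, or ERp57, works with calreticulin and calnexin on glycoproteins. It was at 98.0, 89.1 and 105 CPM in knockdown libraries 1 to 3, against 90.6, 80.5 and 103 CPM in control libraries 1 to 3, and the groups overlapped (log2 fold change 0.094 ± 0.11; edgeR, adjusted p = 0.601). The ratio of Calr to Pdia3 was 0.793, 0.952 and 0.804 in the knockdown, against 1.14, 1.44 and 1.25 in the control, with no overlap (exact permutation p = 0.1, adjusted p = 0.2). The ratio of Canx to Pdia3 was 3.13, 3.52 and 3.22 in the knockdown, against 2.45, 3.298 and 2.32 in the control, and overlapped (exact permutation p = 0.3, adjusted p = 0.45). Pdia4, or ERp72, was at 18.5, 19.5 and 18.9 CPM in the knockdown, against 17.8, 15.1 and 22.4 CPM in the control. Its knockdown libraries lay inside the control range, and its log2 fold change was 0.040 ± 0.15 (adjusted p = 0.887 in edgeR). Pdia6, or P5, was at 27.4, 26.7 and 26.9 CPM in the knockdown, against 28.8, 26.6 and 32.3 CPM in the control (-0.11 ± 0.11; edgeR, adjusted p = 0.522). In the control group, Pdia3, Pdia4 and Pdia6 were each lowest in library 2 and highest in library 3. The SD of Pdia4 was 0.52 CPM in the knockdown and 3.69 CPM in the control.

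The small ER proteins Creld2, Manf and Sdf2l1, known as genes that ER stress induces, did not pass the test. Creld2, a protein with EGF-like repeats, was the least abundant, at 4.37, 3.65 and 3.46 CPM in knockdown libraries 1 to 3, against 5.80, 3.90 and 4.46 CPM in control libraries 1 to 3 (log2 fold change -0.30 ± 0.23; edgeR, adjusted p = 0.389). Manf was at 32.04, 30.9 and 20.8 CPM in the knockdown, against 29.5, 32.6 and 28.4 CPM in the control (-0.11 ± 0.15; edgeR, adjusted p = 0.669). Only knockdown library 3 lay outside the control range on the low side, and without it the log2 fold change of Manf was 0.077. Sdf2l1, a partner of the Hsp40-type co-chaperone Dnajb11, was at 12.1, 8.41 and 9.18 CPM in the knockdown, against 9.46, 6.68 and 8.63 CPM in the control (0.26 ± 0.19; edgeR, adjusted p = 0.369). Its groups overlapped, and library 1 was the highest of each group.

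Xbp1 encodes the transcription factor of the Ire1 branch, whose mRNA must lose a short intron in the cytoplasm before the active protein is made. The table has 1 value for both forms of the mRNA, so it does not show how much was spliced. Xbp1 was at 102, 96.0 and 66.5 CPM in knockdown libraries 1 to 3, against 108, 102 and 86.9 CPM in control libraries 1 to 3. The groups overlapped, and library 3 was the lowest of each (log2 fold change -0.16 ± 0.15; edgeR, adjusted p = 0.474); without knockdown library 3 the value was 0.018. Manf and Xbp1 were both low in knockdown library 3, and the ratio of their counts was 0.314, 0.322 and 0.313 in the knockdown, against 0.273, 0.320 and 0.326 in the control (exact permutation p = 0.9, adjusted p = 0.9).

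**Figure D3:**
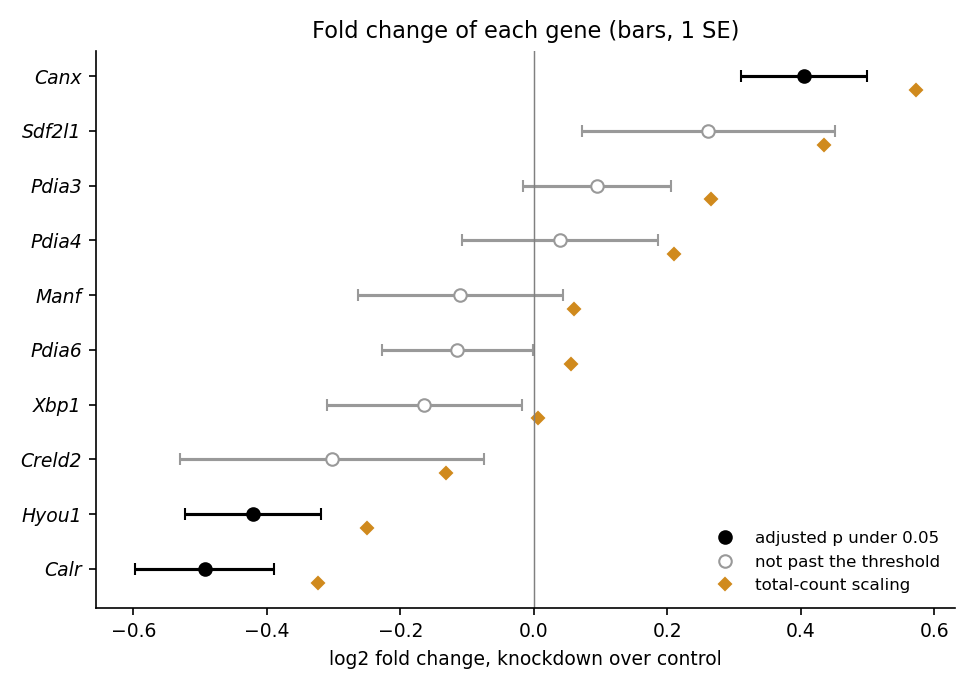
Log2 fold change of each gene, knockdown over control, with 1 SE from the edgeR fit on 3 libraries a group; filled points passed an adjusted p under 0.05, and diamonds give the value with total-count scaling. Canx lies at 0.40, Hyou1 at -0.42 and Calr at -0.49, and total-count scaling moves every gene to the right, with Pdia6, Manf and Xbp1 crossing 0.

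Small differences turned direction with another scaling. When libraries were scaled by their totals, the median over all tested genes was 0.18 on the log2 scale, beside 0.013 with TMM, and the median over the 10 genes was 0.058. Both ends of the order were kept: Canx was at 0.57, and Hyou1 at -0.25 and Calr at -0.32. Summed over the 10 genes, the level was 717 ± 3.35 CPM in the knockdown and 693 ± 24.2 CPM in the control (SD, n = 3 each). The sums ran from 714 to 720.3 CPM in the knockdown and from 666 to 713 CPM in the control, a gap far smaller than the spread of the control libraries. Without Canx, the gene that rose, the other 9 summed to 396 ± 18.6 CPM in the knockdown and 451 ± 20.1 CPM in the control. Leaving out a gene because it rose lowers the remainder more in the knockdown, and Calr and Hyou1, called lower, are among the 9. The lower sum of the 9 is therefore no separate result. With TMM those sums were apart, at 376 to 413 CPM in the knockdown and 436 to 474 CPM in the control. All sums given here depend on TMM, whose factors were 1.04 to 1.09 in the knockdown and 0.925 to 0.955 in the control libraries. They were not formed with total-count scaling, which raises the knockdown against the control, so neither comparison of sums is shown to hold there. Canx made up 44.7% ± 2.48 of the 10 genes' counts in the knockdown and 34.9% ± 2.59 in the control, and Calr 11.5% ± 0.621 in the knockdown and 16.7% ± 1.33 in the control.

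Per kilobase of exon, the scale on which genes can be compared, Canx lay above Calr in the knockdown. The control gave no fixed order of these genes. In the knockdown Canx was at 71.6 to 79.3 CPM per kilobase and Calr at 40.0 to 43.7, with no overlap, while in the control Canx was at 51.7 to 62.0 and Calr at 53.0 to 66.4, which overlap. Xbp1 was next, at 27.8 to 42.8 CPM per kilobase in the knockdown and 36.4 to 45.2 in the control, with Pdia3 at 33.7 to 39.9 in the knockdown and 30.5 to 38.9 in the control. Manf, at 19.2 to 29.5 CPM per kilobase in the knockdown and 26.1 to 30.1 in the control, stood above the remaining genes, which had 15.2 or less. Of those, Pdia6 had 12.5 to 12.8 CPM per kilobase in the knockdown and 12.5 to 15.2 in the control. Hyou1, Pdia4 and Sdf2l1 lay between 7.59 and 10.9 CPM per kilobase in the knockdown and between 6.03 and 12.4 in the control. Creld2 was lowest, at 2.54 to 3.20 in the knockdown and 2.86 to 4.25 in the control. Exons of Manf share 11.5% of their bases, and those of Pdia6 2.35%, with a gene on the opposite strand, so without strand their reads could be mixed.

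**Figure D4:**
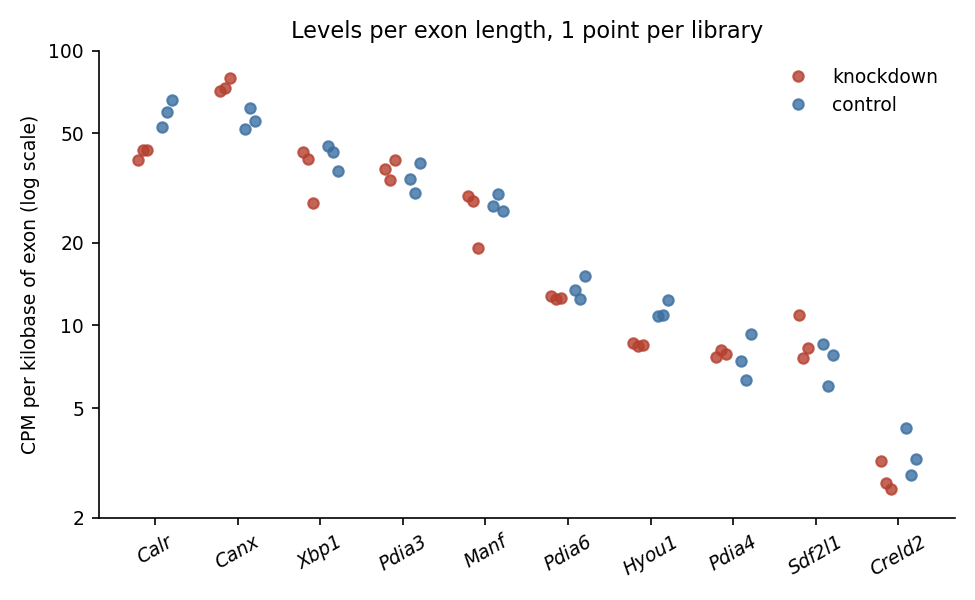
Level per kilobase of exon (log axis) of each gene, 1 point per library, knockdown in red and control in blue, ordered by the control mean. Canx lies above Calr in all 3 knockdown libraries, whereas their control values overlap between 53.0 and 62.0 CPM per kilobase.

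Genes were ranked by how close their centred log2 levels over the 6 libraries lay to the mean of the 10. Predicted models (Gm and Rik symbols) were passed over. The closest of the others were Gatc, Rpap3 and C80913, with root mean square differences of 0.0123, 0.026 and 0.0262 log2 units. The ranking covered 9463 genes that averaged 10 CPM or more, predicted models counted. The mean profile of the 10 genes itself spans only -0.12 to 0.10 log2 units, since the genes move in different directions.

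Other chaperones and folding enzymes of the ER were listed to place the 10 genes. Of 38 tested, 2 rose, 6 fell and 30 did not pass, which is 21.1%, as over all genes, with a median log2 fold change of -0.066. Clgn, a calnexin homologue best known from testis in mice, was at 22.7, 26.8 and 17.4 CPM in knockdown libraries 1 to 3, against 44.0, 43.2 and 48.6 CPM in control libraries 1 to 3, and its groups were apart (log2 fold change -1.02 ± 0.15; edgeR, adjusted p = 0.000711). Fkbp11, a prolyl isomerase of secretory cells, rose to 12.6 ± 0.668 CPM in the knockdown, against 6.62 ± 1.71 CPM in the control (0.93 ± 0.19; edgeR, adjusted p = 0.0045). Sec63, a membrane co-chaperone of the translocon, fell to 40.1 ± 2.81 CPM in the knockdown, against 52.6 ± 1.46 CPM in the control (-0.39 ± 0.10; edgeR, adjusted p = 0.0164), but the call did not hold under total-count scaling or when control library 1, control library 2 or knockdown library 1 was left out. The central chaperones, chosen here after their values were seen, did not pass: Hspa5 (BiP) had a log2 fold change of -0.25 ± 0.12 (adjusted p = 0.169 in edgeR), Hsp90b1 (Grp94) of -0.18 ± 0.12 (adjusted p = 0.30) and P4hb (protein disulfide isomerase) of -0.12 ± 0.12 (adjusted p = 0.511). Hspa5 did pass when the replicate number was used as a block (adjusted p = 0.0227 in edgeR). Cdnf, the paralog of Manf, was at 1.51 ± 0.472 CPM in the knockdown and 1.15 ± 0.26 CPM in the control (adjusted p = 0.55 in edgeR). Of these chaperones and enzymes 7 were higher and 1 lower with total-count scaling. Leaving out control library 2 or knockdown library 1 gave 1 lower gene, and leaving out control library 1 or knockdown library 3 gave 2. There was 1 higher gene when control library 1, knockdown library 1 or knockdown library 3 was left out.

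In the glycan cycle that calreticulin and calnexin serve, 1 of 11 tested genes fell and none rose in edgeR, against 12.6% lower and 8.48% higher over all tested genes. At an unadjusted p under 0.05 in edgeR 1 was higher, and at the adjusted threshold 1 was in DESeq2 and 0 in limma-voom. The gene that fell was Edem1, which sends misfolded glycoproteins to degradation, with a log2 fold change of -0.47 ± 0.14 (edgeR, adjusted p = 0.034), a call that total-count scaling ended, as did leaving out any library but knockdown library 1. Uggt1, the enzyme that returns unfolded glycoproteins to the lectins, was at 0.26 ± 0.14 and did not pass (adjusted p = 0.2), but did with total-count scaling (0.43; adjusted p = 0.0318); it was chosen after its values were seen. With that scaling 3 of these genes were higher and 0 lower, and 1 was higher with a minimum mean of 1 CPM or without knockdown library 3.

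Among sensors and factors of the unfolded protein response, 5 of 18 rose, against 8.48% of all tested genes, and none fell in edgeR, against 12.6%. At an unadjusted p under 0.05 in edgeR 2 were lower, and at the adjusted threshold 1 was in DESeq2 and 0 in limma-voom. The median log2 fold change of this list was 0.24. Creb3l1, a membrane-bound transcription factor of the ER, was at 7.02, 7.20 and 9.56 CPM in knockdown libraries 1 to 3, against 2.40, 3.38 and 4.27 CPM in control libraries 1 to 3 (log2 fold change 1.24 ± 0.24; edgeR, adjusted p = 0.00342). Ppp1r15a (Gadd34), which reverses the translational block of Perk, rose to 12.6 ± 1.22 CPM in the knockdown, against 7.15 ± 0.732 CPM in the control (0.82 ± 0.16; edgeR, adjusted p = 0.00336). Atf4, a transcription factor translated under that block, rose to 272 ± 12.3 CPM in the knockdown, against 218 ± 16.6 CPM in the control (0.32 ± 0.091; edgeR, adjusted p = 0.0244). The other genes that rose were Ddit3 (Chop; 0.36) and Mbtps2 (0.43), named after their values were seen. The sensor genes Ern1 (0.44; adjusted p = 0.274), Atf6 (0.21; adjusted p = 0.272) and Eif2ak3 (0.040; adjusted p = 0.872), which encode Ire1, Atf6 and Perk, did not pass and were also chosen after their values were seen. Leaving out control library 2, control library 3 or knockdown library 1 gave 2 higher genes in this list and ended the calls for Atf4, Ddit3 and Mbtps2. The call for Ddit3 also ended without knockdown library 2, and that for Mbtps2 without knockdown library 3. Mbtps2 shares 36.1% of its exon bases with Yy2 on the same strand, so their reads may be mixed.

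In translocation and in export lower calls outnumbered higher ones, as over all tested genes (12.6% lower, 8.48% higher), but export genes were split 4 to 4 with total-count scaling. In translocation into the ER, 7 of 26 fell, and none rose in edgeR, with 2 higher at an unadjusted p under 0.05, and 1 higher at the adjusted threshold in DESeq2 and 0 in limma-voom; the median log2 fold change was -0.16. Sec62, a translocon partner of Sec63, was lower (90.1 ± 11.1 CPM in the knockdown, 168 ± 2.72 CPM in the control; log2 fold change -0.89), as were Wrb (-0.76), a receptor for tail-anchored proteins, and Srp9 (-0.53) of the signal recognition particle. With total-count scaling 4 translocation genes were lower and 3 higher, with a minimum mean of 1 CPM 2 were higher, and without control library 1 or knockdown library 1 there were 4 lower. In export from the ER and return to it, 5 of 26 fell and 1 rose. Sec23a of the COPII coat was at 92.3 ± 13.8 CPM in the knockdown and 209 ± 9.95 CPM in the control (log2 fold change -1.18 ± 0.11; edgeR, adjusted p = 0.000145), and Ergic2 (-1.13) and Tmed4 (-0.88), both membrane proteins of early secretory traffic, were lower too. The number of export genes that were higher was 3 with DESeq2 or a minimum mean of 1 CPM, 2 without knockdown library 3 and 0 without knockdown library 1.

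Of 29 genes of ER-associated degradation, 4 rose and 6 fell, while over all tested genes 8.48% rose and 12.6% fell. Scaling by totals gave 5 higher and 4 lower genes. The median log2 fold change of the list was -0.076. The ubiquitin ligase genes March6 (-0.59 ± 0.087; edgeR, adjusted p = 0.000813) and Rnf5 (-0.72 ± 0.11; adjusted p = 0.00105) fell, and Ufd1l, a cofactor of the p97 segregase, rose (0.62 ± 0.098; adjusted p = 0.00117). There were 2 higher genes when any library but knockdown library 2 was left out. Of 23 genes of N-glycan assembly and transfer, 2 rose and 2 fell: Alg2 (-0.99) and Alg9 (-0.52), both mannosyltransferases, fell, and Dpagt1 (0.68), which starts the glycan, and Magt1 (0.73), named after its values were seen, rose. With total-count scaling 4 glycan genes were higher and 1 lower. There was 1 lower gene when any library but knockdown library 2 was left out, and 0 were higher in edgeR without knockdown library 1. The gene lost in each of these cases was Alg9; Dpagt1 and Magt1 lost their calls without knockdown library 1, and Magt1 also without control library 1. Of 15 genes of the ER calcium store, the reticulocalbin gene Rcn2 (-0.83) and the calcium pump gene Atp2a3 (-0.83) fell and the calcium release channel gene Itpr2 (1.25) rose, with 2 higher under total-count scaling. Exons of Rnf5 (33.2%), Ergic2 (21.3% with Far2), Sec62 (12.8%), Wrb (10.8%) and Hsp90b1 (15.04%) share bases with genes on the opposite strand, and smaller shares were found for Sec63, Ppp1r15a, Ufd1l, Sec23a, Eif2ak3 and Ddit3, so these values are uncertain.

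**Figure D5:**
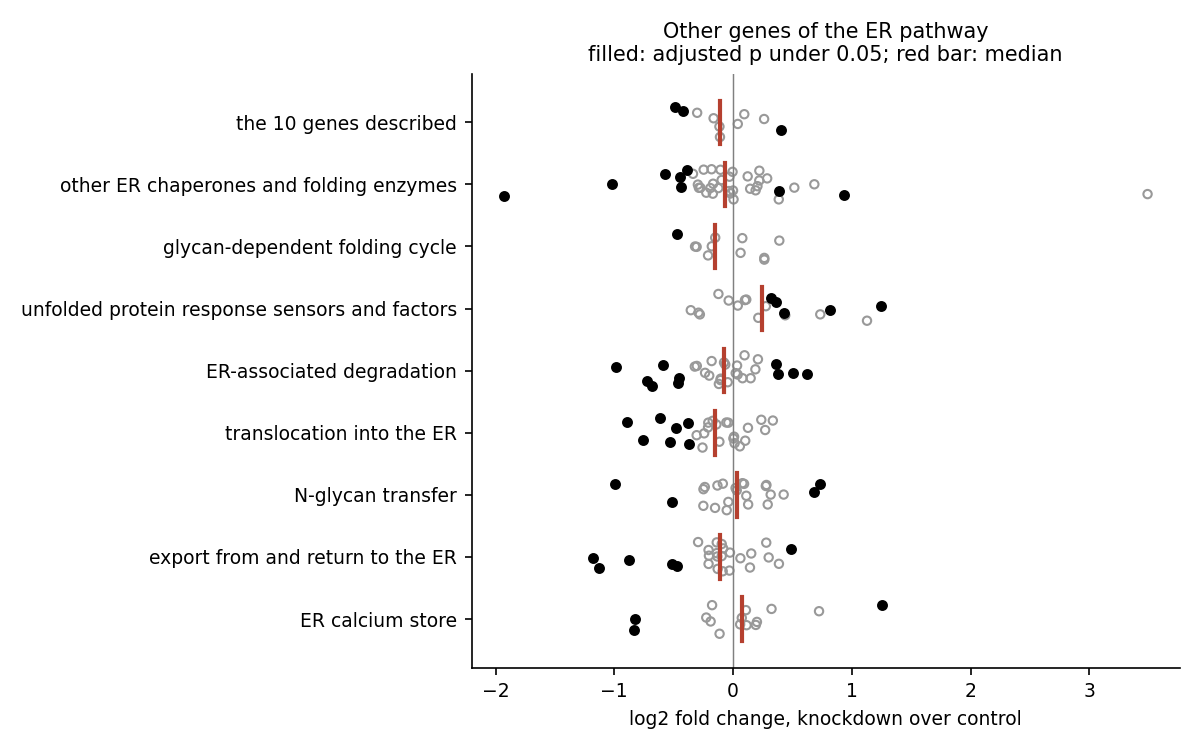
Log2 fold change, knockdown over control, of the tested genes of each ER list; filled points passed an adjusted p under 0.05 in edgeR, open points did not, and red bars give the median. The 10 genes hold 1 higher and 2 lower calls, the response sensors and factors 5 higher, and translocation genes 7 lower.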

How the data were processed

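The authors deposited whole-number counts per gene for 6 RNA sequencing libraries. Per the submitters' processing notes, TopHat2 2.0.8 was used with the build mm10. Counting tool and strand: not given in the sources used here. These counts went into a 2-sided quasi-likelihood test (edgeR 4.0.16, R 4.3.3) over all 6 libraries, with TMM scaling, filterByExpr at a minimum count of 10 and total of 15, and Benjamini-Hochberg adjustment over 16766 genes at 0.05. Standard errors were derived from the F statistic. The code was tested on simulated data. Alternatives were DESeq2 1.42.0, limma-voom (limma 3.58.1), other scalings and filters, a robust dispersion, a replicate block and each library left out.

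The 10 genes and the pathway lists were chosen with earlier results of these data known. Named genes were Satb1, the 10 genes and up to 3 called genes with the smallest p of each other list. The 3 genes with the closest profile, predicted models passed over, were named too. Others are marked as chosen later. Exon lengths and overlaps came from GENCODE within RefSeq gene bounds (GRCm38, the assembly also called mm10). A chi-square between the libraries of each group, divided by the number of genes, lay between 58.5 and 156, far above sampling noise.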

Additional observations from a re-analysis of the deposited data

How the results depend on the processing

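Of the 10 genes, Canx and Calr kept direction and call under all 14 alternatives, with log2 fold changes between 0.34 and 0.57 and between -0.57 and -0.32; Satb1 did so between -2.24 and -1.43. The call for Hyou1 ended under total-count scaling (-0.25) and when control library 3 was left out (-0.36), which left 1 lower gene among the 10 in place of 2; over all leave-outs that count ranged from 1 to 2 and the value of Hyou1 from -0.46 to -0.36. Among uncalled genes, total-count scaling turned Pdia6 (0.056), Manf (0.060), Xbp1 (0.0057), Gatc (0.10), Rpap3 (0.091), C80913 (0.076) and P4hb (0.048) positive; the scaling itself moves all genes up. Leaving out single libraries gave Pdia4 values from -0.086 to 0.20, Manf from -0.21 to 0.077, Xbp1 from -0.27 to 0.018 and Eif2ak3 from -0.014 to 0.13. Over all genes, 1421 were called higher and 2115 lower; with total-count scaling the numbers were 2770 and 972, and with 1 library left out, 804 to 1356 and 1132 to 2054, the fewest without knockdown library 1; without control library 2 they were 910 and 1322.

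The titles give both groups the numbers 1 to 3. Deviations from the group mean correlated over genes at 0.181, 0.0205 and 0.253 for same-numbered libraries 1 to 3. For knockdown and control libraries of unlike number the correlations ran from -0.217 to 0.0673. The labels do not say whether the numbers pair the libraries, and these values do not settle it. The block is therefore given only as an alternative. With the replicate number as a block, 1924 genes were higher and 2789 lower; the 10 genes again gave 1 higher and 2 lower, and Hspa5 passed (-0.25; edgeR, adjusted p = 0.0227). Creld2 had the fewest counts of the 10 genes, at 551 to 943 per library. Its SD was 12.5% of the mean in the knockdown and 20.7% in the control libraries.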
